A study of Astyanax mexicanus with 6 samples.

Results

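FGF signaling genes were compared between 2 embryonic fibroblast lines of the Mexican tetra, *Astyanax mexicanus*. The genes are the 89 entries, of 27420 genes listed, whose symbols begin as those of fibroblast growth factors (*fgf* with a number), their receptors (*fgfr*) and binding proteins (*fgfbp*), Sprouty and Spred inhibitors, dual specificity phosphatases (*dusp*), ETV transcription factors, FLRT membrane proteins or *il17rd*. PEF is the line from Pachón cavefish embryos and SEF the line from surface fish embryos, each sequenced as 3 libraries from cells of similar passage number. Both lines carry the label wild type, received no treatment and grew in the same serum-containing medium. The paper states that the cells were detached with the enzyme mix TrypLE, washed in medium, spun down and then snap frozen. The effect of this handling on the values was not tested. Each population is represented by 1 line, which the study traces to dissociated early embryos and to clones kept through many passages. Replicates are libraries of 1 line, so the p-values measure only the spread between these libraries, which may be technical, and line and population cannot be told apart.

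Fibroblast growth factors are secreted proteins that bind heparan sulfate and activate receptor tyrosine kinases at the cell surface. The active receptor passes its signal through adaptor proteins to RAS and the ERK kinase cascade, and ERK activity switches on Pea3 family ETS factors together with the pathway's own brakes. Those brakes include Sprouty and Spred proteins, which act on the way to RAS and RAF, the membrane protein Il17rd (also called Sef in zebrafish, a name unrelated to that of the SEF line), and MAP kinase phosphatases of the DUSP family, which dephosphorylate ERK, JNK or p38. In vertebrate embryos the pathway is known for its part in mesoderm formation, limb outgrowth and the growth of mesenchymal cells.

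Reads on genes numbered 36790663 to 42506026 per PEF library and 33381563 to 39156850 per SEF library, and 18728 to 19026 genes had reads in a PEF library, against 20784 to 21360 in a SEF library. The label of fibroblast was checked against 14 listed marker genes found in the table, of which 14 averaged over 1 TPM (a transcript level scaled for gene length and library size) in PEF and 13 in SEF, with summed levels of 9050 to 15400 TPM in PEF and 8680 to 12200 TPM in SEF. Most of each sum was *col1a1a*, *col1a1b* and *col1a2*, and other markers on the list differed between the lines in both directions. *postnb* was at 87.21 to 119.8 TPM in PEF and 0.16 to 0.42 TPM in SEF. *prrx1b* was at 14.75 to 29.97 TPM in PEF and 182.14 to 282.95 TPM in SEF. Vimentin (*vim*) was low for a fibroblast marker, at 0.88 to 1.62 TPM in PEF and 2.79 to 4.14 TPM in SEF. The paper reports vimentin in both lines by immunostaining, which detects protein and not transcripts. Of the other marker lists, epithelial genes summed to 3960 to 4920 TPM in PEF and 1690 to 2440 TPM in SEF, nearly all of it *krt8* and *krt4*, with *epcam* at or near 0. The 4 endothelial genes summed to 11.5 to 18.3 TPM in PEF and 57.5 to 103 TPM in SEF, nearly all of it *kdrl*, with *cdh5* at 0. Neural genes reached at most 1.03 TPM in PEF and 22.0 TPM in SEF, carried by *gfap* with *sox2* and *sox10* at 0. Muscle genes reached at most 0.76 TPM in PEF and 3.23 TPM in SEF, blood genes at most 0.23 TPM in PEF and 0.48 TPM in SEF, and pigment genes at most 13.5 TPM in PEF and 2.66 TPM in SEF. The part of these cell type differences in the values that follow was not tested. In such bulk libraries, fewer cells of a type and less RNA per cell cannot be told apart.

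Of the 89 genes, 59 had enough reads to be tested. With edgeR's quasi-likelihood test on the read counts and Benjamini-Hochberg adjustment over all 16670 genes tested, 42 of the 59 (71.2%) passed an adjusted p of 0.05, compared with 63.5% of all genes tested. Of these, 20 (33.9%) were higher in PEF, beside 30.4% of all genes, and 22 (37.3%) were lower in PEF, beside 33.1% of all genes. The 2 lines therefore differed at FGF signaling genes about as often as at genes in general. Changes of over 2-fold were somewhat more frequent, in 30 of the 59 (50.8%) against 40.5% of all genes, and the median absolute log2 fold change was 1.06, against 0.77 over all genes. Normalized counts of PEF and SEF libraries fell into separate ranges at 45 of the 59 genes (76.3%), against 70.8% of all genes. A gene read in only one of the lines passes the read filter through that line alone, so these shares describe the tested genes and not all 89. With at least 10 reads required in every library, 45 genes were left, of which 18 were higher and 13 lower in PEF. Their median log2 fold change was 0.205, against 0.0124 over the 13388 genes left by that filter. The shares of all genes given above refer to the 16670 genes and do not apply to this count. Without such a share beside it, 18 against 13 cannot be read as a lean toward PEF.

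By role, 5 of 6 tested Sprouty and Spred genes and 5 of 9 MAP kinase phosphatases were higher in PEF, beside 30.4% of all genes, and 4 of 6 receptor genes, 4 of 9 secreted ligands and both binding proteins were lower, beside 33.1% of all genes. The lower ligands and binding proteins passed the read filter through SEF, so their direction cannot be set against that share. With at least 10 reads required in every library, 3 ligands were left, 1 higher and 1 lower, and no binding protein. The filter removed none of the receptor, Sprouty and Spred or MAP kinase phosphatase genes, so it is no further check on them. Under it 4 of 6 receptor genes were lower, and 5 of 6 Sprouty and Spred genes and 5 of 9 phosphatases higher. When a library was left out, 3 to 6 of the Sprouty and Spred genes and 5 to 7 of the phosphatases were higher. From 3 to 4 of the receptor genes were then lower. These groups are small and were not tested as groups.

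**Figure D1:**
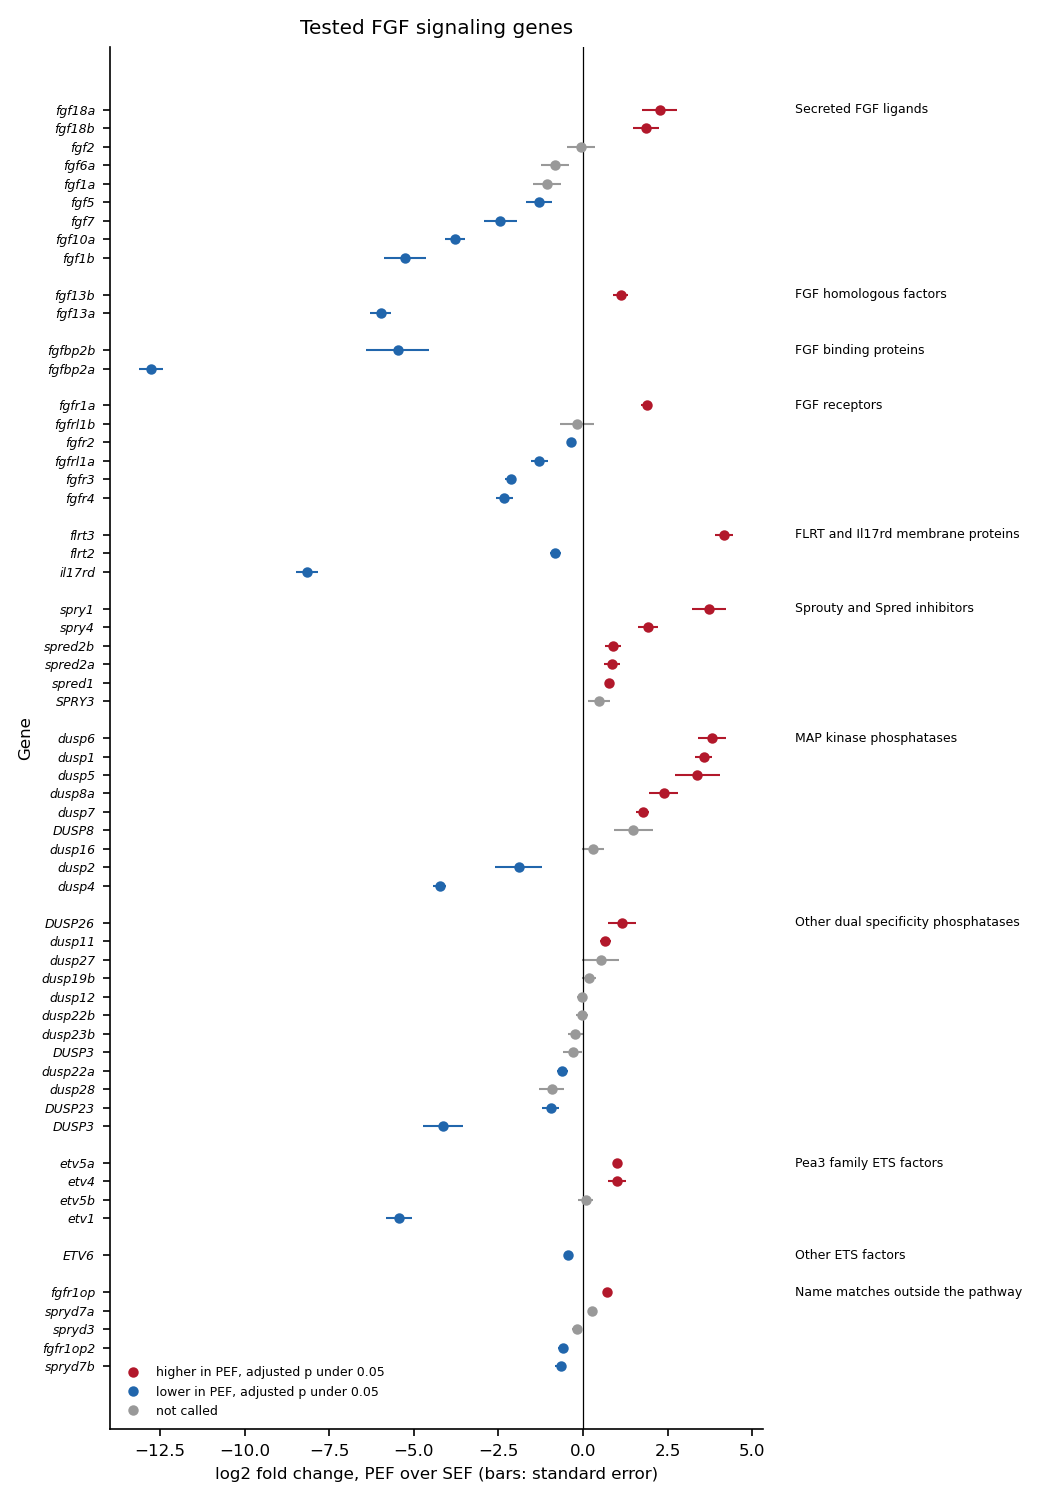
Log2 fold change, PEF over SEF, of the 59 tested genes, ordered by role (right) and by size, with bars for the standard error from the edgeR fit (3 libraries per line). Red points mark the 20 genes called higher in PEF, blue points the 22 called lower, and grey points the 17 not called; *fgfbp2a* at −12.76 lies farthest from 0.

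Of the tested genes, *fgfbp2a* had the largest fold change. FGF binding proteins are secreted; the best studied of them in mammals, FGFBP1, releases FGFs held in the extracellular matrix. *fgfbp2a* (ENSAMXG00000013087) was at 0.37, 0.11 and 0.18 TPM in PEF libraries and at 1713.64, 1517.14 and 1668.67 TPM in SEF libraries. It was thus near the floor in every PEF library, with 10, 3 and 8 reads, while in SEF it was among the most abundant transcripts, at the 99.6 percentile of all genes. Its log2 fold change was −12.76 ± 0.353 (SE, edgeR adjusted p = 1.19e-06).

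*fgfbp2b* (ENSAMXG00000021623) had 0, 0 and 2 reads in PEF libraries and 41, 15 and 48 reads in SEF libraries. The lines did not overlap for this copy either, although its level in SEF, 1.6 ± 0.78 TPM (SD, n = 3), was far below that of *fgfbp2a*. Scaled for library size, its reads were 51.7-fold lower in PEF (95% counting interval 14.0 to 432, edgeR adjusted p = 0.00165). The fitted log2 fold change was −5.48 with all libraries and −8.14 without PEF replicate 3, which held both PEF reads. Of the binding protein genes, *fgfbp3* had no counted read in any library.

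Secreted ligands were scarce in both lines. Of 22 ligand genes, 9 were tested, 2 were higher in PEF, 4 were lower and 3 did not pass. Summed over all 22, their level was 5.42 to 9.81 TPM in PEF and 8.63 to 9.04 TPM in SEF, so the totals overlapped.

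*fgf10a* (ENSAMXG00000043492), in other vertebrates a mesenchymal signal to epithelium that is needed for limb budding, had 5, 7 and 8 reads in PEF libraries and 103, 89 and 86 in SEF libraries, or 0.09 to 0.17 TPM against 1.93 to 2.73 TPM. Every SEF library was above every PEF library, with a log2 fold change of −3.78 ± 0.293 (SE, edgeR adjusted p = 4.25e-05). *fgf7*, which in mammals signals to epithelium through the same receptor form as FGF10, had 4, 10 and 10 reads in PEF libraries and 62, 36 and 31 in SEF libraries. It too was lower in PEF without overlap, at −2.44 ± 0.48 (SE, edgeR adjusted p = 0.00343).

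The 2 copies of *fgf1*, whose mammalian product binds all of the signaling FGF receptors, differed in degree. *fgf1b* had 0, 3 and 1 reads in PEF libraries and 41, 83 and 45 in SEF libraries, which is 42.0-fold lower in PEF (95% counting interval 16.1 to 156, edgeR adjusted p = 0.0003). Its fitted log2 fold change was −5.26 with all libraries and −6.43 without PEF replicate 2. *fgf1a* had 54, 27 and 25 reads in PEF libraries and 53, 110 and 66 in SEF libraries. Its normalized counts did not overlap between the lines, but its TPM values did. PEF replicate 1 stood at 0.64 TPM beside 0.59 TPM in SEF replicate 3. The log2 fold change of −1.06 ± 0.404 (SE) did not pass with all libraries (edgeR adjusted p = 0.0533). Without PEF replicate 1 it was −1.55 and passed (edgeR adjusted p = 0.00617).

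*fgf5*, a regulator of the hair cycle in mammals, was read 5, 9 and 4 times in PEF libraries and 12, 20 and 13 times in SEF libraries, with a log2 fold change of −1.29 ± 0.385 (SE, edgeR adjusted p = 0.0215). Counts this low left the call fragile: it was lost without PEF replicate 1 (edgeR adjusted p = 0.062), PEF replicate 3 (0.0804) or SEF replicate 2 (0.0857), and with DESeq2 (adjusted p = 0.0521).

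Both copies of *fgf18*, a ligand known in mammals for its role in cartilage and bone, were higher in PEF. *fgf18b* (ENSAMXG00000018793) had 96, 93 and 72 reads in PEF libraries and 29, 13 and 29 in SEF libraries, and *fgf18a* (ENSAMXG00000034427) had 39, 31 and 23 against 8, 2 and 9. In neither did the lines overlap. The log2 fold changes were 1.86 ± 0.372 for *fgf18b* (SE, edgeR adjusted p = 0.00367) and 2.27 ± 0.517 for *fgf18a* (SE, edgeR adjusted p = 0.00677). At 2.94 ± 0.561 TPM (SD, n = 3), *fgf18b* had the highest mean level of the ligands in PEF, and *fgf10a*, at 2.20 ± 0.462 TPM (SD, n = 3), had the highest in SEF. *fgf2* and *fgf6a* overlapped between the lines (edgeR adjusted p = 0.897 and 0.12).

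The other 13 ligand genes did not pass the read filter. *fgf16* had 27, 7 and 1 reads in PEF libraries and 0, 0 and 2 in SEF libraries, so most of its reads came from PEF replicate 1. *fgf8*, a ligand of many embryonic signaling centers, had 0, 0 and 1 reads in PEF libraries and 5, 11 and 10 in SEF libraries, or 25.8-fold lower in PEF with a 95% counting interval of 4.24 to 1060. *fgf10b* had none in PEF and 4, 4 and 5 in SEF. If 3 reads per library are allowed for a count of 0, it was at least 1.44-fold lower in PEF. *fgf3*, *fgf4*, *fgf8b*, *fgf17*, *fgf20a*, *fgf20b*, *fgf21*, *fgf22* and *fgf24* had at most 6 reads in any library and *fgf19* had none. Fitted without the read filter, *fgf16* passed as higher in PEF (edgeR adjusted p = 0.0413), and *fgf8* (0.00404), *fgf10b* (0.0105) and *fgf3* (0.0319), with 0 reads in PEF and 2, 2 and 4 in SEF, as lower. These intervals and floors cover counting error only.

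FGF homologous factors share the FGF fold but stay inside the cell, where in mammals they bind voltage-gated sodium channels. Of the 2 tested copies, *fgf13a* was lower and *fgf13b* higher in PEF by read counts. *fgf13a* (ENSAMXG00000000040) had 1, 2 and 1 reads in PEF libraries and 83, 100 and 95 in SEF libraries, 69.1-fold lower in PEF (95% counting interval 26.7 to 255, edgeR adjusted p = 9.06e-06). *fgf13b* (ENSAMXG00000032800) had 78, 122 and 96 reads in PEF libraries and 41, 56 and 40 in SEF libraries, with a log2 fold change of 1.11 ± 0.225 (SE, edgeR adjusted p = 0.00388). The normalized counts of *fgf13b* did not overlap between the lines, but its TPM values did. SEF replicate 2 stood at 1.6 TPM within the PEF range of 1.57 to 1.96 TPM. The call was lost with limma on TPM (log2 fold change 0.49 and adjusted p = 0.0705 on log2(TPM + 1)). *FGF14*, *fgf11a*, *fgf11b*, *fgf12a* and *fgf12b* had at most 6 reads in any library.

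**Figure D2:**
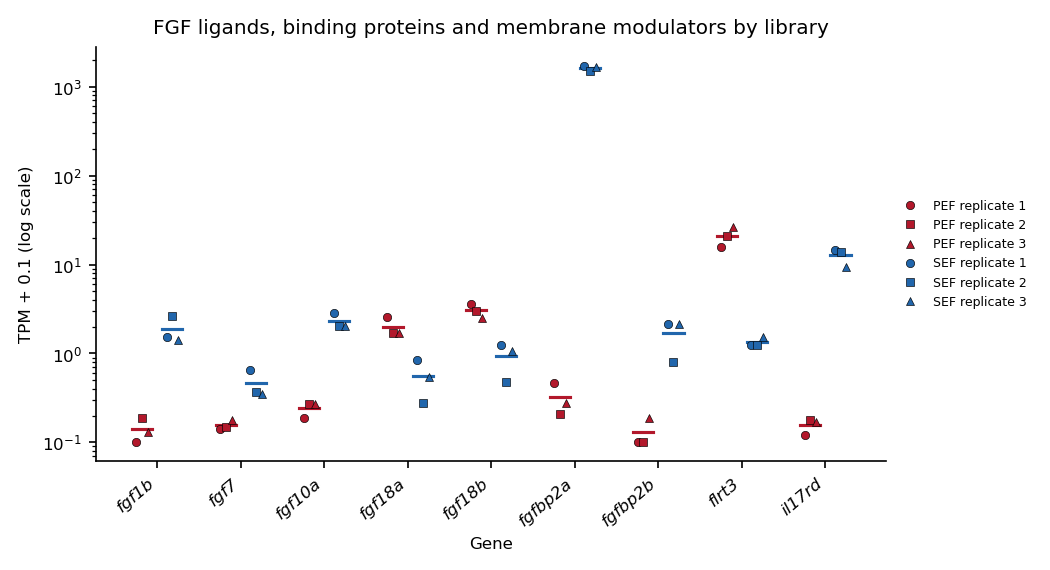
TPM + 0.1 on a log axis for ligands, binding proteins and membrane modulators, in PEF libraries (red, left of each pair) and SEF libraries (blue, right), with a symbol for each replicate and a bar at the mean of 3 libraries. *fgfbp2a* and *il17rd* lie near the floor in PEF and at 1517.14 TPM or more and 9.37 TPM or more in SEF, while *flrt3*, *fgf18a* and *fgf18b* are higher in PEF.

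Receptor transcripts differed in make-up between the lines. FGFR1 to FGFR4 are the signaling receptors and carry an intracellular kinase. *fgfr1a* (ENSAMXG00000015547) was at 16.18, 19.30 and 18.29 TPM in PEF libraries and at 5.51, 5.82 and 4.0 TPM in SEF libraries. It was the only one of the 6 receptor genes that was higher in PEF, at a log2 fold change of 1.89 ± 0.165 (SE, edgeR adjusted p = 7.42e-05).

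*fgfr4* (ENSAMXG00000006962) was at 5.71, 9.52 and 8.81 TPM in PEF libraries and at 35.25, 49.71 and 48.93 TPM in SEF libraries. The lowest SEF library was above the highest PEF library, and the log2 fold change was −2.33 ± 0.25 (SE, edgeR adjusted p = 0.000189). *fgfr3* (ENSAMXG00000012387) was at 2.62, 2.25 and 2.07 TPM in PEF libraries and at 11.47, 12.70 and 8.44 TPM in SEF libraries, a log2 fold change of −2.13 ± 0.165 (SE, edgeR adjusted p = 4.27e-05). It was the least abundant signaling receptor in PEF, and in SEF *fgfr1a* was.

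*fgfr2* (ENSAMXG00000003805) was at 19.83, 21.30 and 19.70 TPM in PEF libraries and at 31.56, 29.06 and 25.68 TPM in SEF libraries. This was the smallest called difference among the receptors, −0.37 ± 0.119 on the log2 scale (SE, edgeR adjusted p = 0.0306). The direction held in every alternative, but the call was lost without PEF replicate 1 (edgeR adjusted p = 0.0828), PEF replicate 3 (0.0985), SEF replicate 1 (0.0766) or SEF replicate 2 (0.0709), and without the read filter (0.0507).

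The 4 signaling receptors together summed to 44.34, 52.37 and 48.87 TPM in PEF libraries and to 83.79, 97.29 and 87.05 TPM in SEF libraries. Within that sum, *fgfr1a* made up 36.9 ± 0.451% in PEF and 5.72 ± 1.02% in SEF, and *fgfr4* made up 16.4 ± 3.0% in PEF and 49.8 ± 7.14% in SEF (SD, n = 3). The share of *fgfr2* was 41.9 ± 2.43% in PEF and 32.4 ± 4.62% in SEF, and that of *fgfr3* was 4.82 ± 0.947% in PEF and 12.2 ± 2.16% in SEF. Of these 4 genes, PEF receptor transcripts were therefore mainly *fgfr2* and *fgfr1a*, and SEF receptor transcripts mainly *fgfr4* and *fgfr2*. The symbol *fgfr1b* was not listed, so a receptor copy without a matching symbol would be missing from these shares. None of the 4 shares overlapped between the lines; the exact two-sided permutation test gave p = 0.1 for each share and for the sum, the smallest p that 3 libraries against 3 allow.

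**Figure D3:**
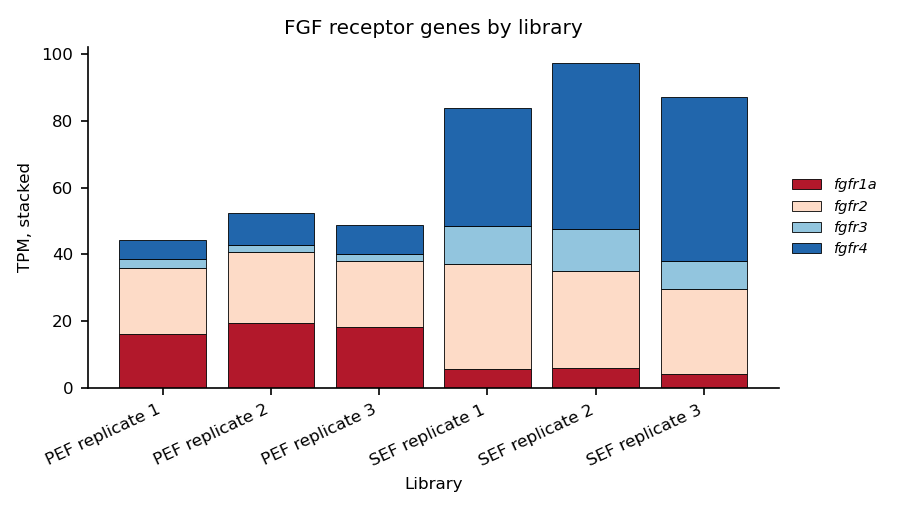
TPM of the 4 signaling receptor genes, stacked, in each library, with the 3 PEF libraries on the left and the 3 SEF libraries on the right. The PEF stacks reach 44.34 to 52.37 TPM and the SEF stacks 83.79 to 97.29 TPM, with *fgfr1a* taking the larger share in PEF and *fgfr4* in SEF.

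*FGFRL1* genes encode a receptor-like protein without the kinase. *fgfrl1a* (ENSAMXG00000033222) was at 2.63, 3.82 and 3.61 TPM in PEF libraries and at 10.92, 7.49 and 7.08 TPM in SEF libraries, without overlap, at a log2 fold change of −1.29 ± 0.258 (SE, edgeR adjusted p = 0.00371). *fgfrl1b* was at 1.38, 0.56 and 0.53 TPM in PEF libraries and at 0.96, 0.44 and 1.81 TPM in SEF libraries. Its libraries overlapped (log2 fold change −0.17 ± 0.509, SE, edgeR adjusted p = 0.78).

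Of the membrane modulators of the receptors, *il17rd* and *flrt3* differed strongly. *il17rd* (ENSAMXG00000004054), an inhibitor that zebrafish embryos express where FGF signals act, was at 0.02, 0.08 and 0.07 TPM in PEF libraries and at 14.57, 13.82 and 9.37 TPM in SEF libraries. The PEF libraries held 2, 7 and 4 reads of it, against 1313, 1475 and 998 in SEF, and the log2 fold change was −8.15 ± 0.327 (SE, edgeR adjusted p = 3.48e-06). *flrt3* (ENSAMXG00000025795), whose product binds FGF receptors and promotes their signaling in Xenopus, was at 15.77, 20.82 and 26.15 TPM in PEF libraries and at 1.15, 1.15 and 1.43 TPM in SEF libraries. It was higher in all PEF libraries, at 4.17 ± 0.263 on the log2 scale (SE, edgeR adjusted p = 1.78e-05).

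Of the 2 genes named *flrt2*, the tested one (ENSAMXG00000024902) was lower in PEF, with 9.68, 12.19 and 11.21 TPM in PEF libraries and 24.25, 18.04 and 19.36 TPM in SEF libraries (log2 fold change −0.82 ± 0.173, SE, edgeR adjusted p = 0.00486). The other *flrt2* gene (ENSAMXG00000010699) had 0, 1 and 0 reads in PEF libraries and 6, 8 and 10 in SEF libraries, and passed as lower in PEF once the read filter was dropped (edgeR adjusted p = 0.00409). *FLRT1* and *flrt1b* had at most 4 reads in any library.

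Of the 7 Sprouty and Spred inhibitors, 6 were tested, 5 were higher in PEF and none was lower. No gene was listed under the symbol *spry2*, so a copy without that symbol would be missed. Sprouty proteins are induced by receptor tyrosine kinase signaling and hold back the RAS-ERK cascade. *spry1* (ENSAMXG00000038734) was at 44.85, 15.81 and 13.35 TPM in PEF libraries and at 1.70, 2.76 and 1.63 TPM in SEF libraries. All PEF libraries were above all SEF libraries, and PEF replicate 1 stood well above the other PEF libraries. The log2 fold change was 3.72 ± 0.501 (SE, edgeR adjusted p = 0.00056) and 3.04 without PEF replicate 1 (edgeR adjusted p = 4.9e-05).

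*spry4* (ENSAMXG00000024962) was at 38.59, 36.90 and 19.78 TPM in PEF libraries and at 6.77, 11.39 and 8.18 TPM in SEF libraries. The groups did not overlap (log2 fold change 1.93 ± 0.295, SE, edgeR adjusted p = 0.00103). *SPRY3* was at 17.11, 12.43 and 12.21 TPM in PEF libraries and at 6.51, 9.04 and 16.31 TPM in SEF libraries. SEF replicate 3 lay within the PEF range, and the gene did not pass with all libraries (log2 fold change 0.47 ± 0.323, SE, edgeR adjusted p = 0.237) but did without SEF replicate 3 (0.90, edgeR adjusted p = 0.0114).

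Spred proteins are membrane-bound relatives of Sprouty that bring the RAS inactivator neurofibromin to the membrane. *spred1* (ENSAMXG00000030050) was at 24.17, 23.90 and 20.51 TPM in PEF libraries and at 15.04, 13.41 and 13.61 TPM in SEF libraries. The difference was small but well beyond the spread, with a log2 fold change of 0.78 ± 0.0822 (SE, edgeR adjusted p = 0.000171). *spred2a* was at 3.58, 4.71 and 4.25 TPM in PEF libraries and at 2.12, 2.47 and 2.71 TPM in SEF libraries, a log2 fold change of 0.86 ± 0.231 (SE, edgeR adjusted p = 0.0142).

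*spred2b* was at 7.01, 10.51 and 9.28 TPM in PEF libraries and at 4.40, 4.19 and 6.06 TPM in SEF libraries, a log2 fold change of 0.89 ± 0.237 (SE, edgeR adjusted p = 0.0138). Neither copy overlapped between the lines. Without SEF replicate 2 the edgeR adjusted p was 0.0559 for *spred2a* and 0.0532 for *spred2b*, and without PEF replicate 2 it was 0.0528 for *spred2a*. *spred3* had at most 3 reads in any library.

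The 9 MAP kinase phosphatases were all tested, with 5 higher in PEF, 2 lower and 2 not called. Their summed level was 712.3, 442.3 and 384.3 TPM in PEF libraries and 67.0, 69.98 and 125.3 TPM in SEF libraries. The lowest PEF sum was above the highest SEF sum, and PEF replicate 1 was the highest library. Among the SEF libraries replicate 3 had the highest sum, and without it 7 of the 9 phosphatases were higher in PEF.

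*dusp6* (ENSAMXG00000043968), a cytoplasmic phosphatase for ERK and a common readout of FGF signaling in zebrafish, was at 149.20, 52.15 and 63.97 TPM in PEF libraries and at 4.57, 7.04 and 7.76 TPM in SEF libraries. It was higher in each PEF library, at a log2 fold change of 3.81 ± 0.406 (SE, edgeR adjusted p = 0.000184). PEF replicate 1 stood well above the other PEF libraries, and without it the log2 fold change was 3.29 (edgeR adjusted p = 2.31e-05). *dusp1* (ENSAMXG00000036546), an early-response nuclear phosphatase of p38, JNK and ERK, was at 276.14, 249.80 and 202.79 TPM in PEF libraries and at 20.48, 16.28 and 29.10 TPM in SEF libraries. Its mean of 242.9 ± 37.2 TPM in PEF (SD, n = 3) was the highest in PEF among the 89 genes, and the log2 fold change was 3.56 ± 0.259 (SE, edgeR adjusted p = 3.26e-05).

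*dusp5* (ENSAMXG00000038296), a nuclear phosphatase for ERK, was at 81.12, 18.99 and 17.52 TPM in PEF libraries and at 2.87, 2.90 and 5.78 TPM in SEF libraries. PEF replicate 1 stood far above the other PEF libraries, but these too were above all of SEF. The log2 fold change was 3.38 ± 0.667 (SE, edgeR adjusted p = 0.00348) with all libraries and 2.36 without PEF replicate 1 (edgeR adjusted p = 0.000766).

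*dusp7* (ENSAMXG00000031983), a close relative of *dusp6*, was at 22.32, 20.26 and 19.86 TPM in PEF libraries and at 4.93, 5.67 and 8.53 TPM in SEF libraries. Its PEF libraries lay close together and apart from SEF (log2 fold change 1.76 ± 0.194, SE, edgeR adjusted p = 0.000216).

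*dusp8a* (ENSAMXG00000016953), of the type that acts on JNK and p38, was at 96.97, 54.46 and 35.73 TPM in PEF libraries and at 7.36, 13.26 and 17.84 TPM in SEF libraries. The groups did not overlap (log2 fold change 2.38 ± 0.434, SE, edgeR adjusted p = 0.00239). *DUSP8* (ENSAMXG00000032104) was at 80.87, 42.82 and 41.18 TPM in PEF libraries and at 11.30, 9.79 and 40.27 TPM in SEF libraries. SEF replicate 3 came close to the lower PEF libraries. The gene missed the threshold with all libraries (log2 fold change 1.49 ± 0.571, SE, edgeR adjusted p = 0.054) and passed without SEF replicate 3 (2.44, edgeR adjusted p = 0.00124) and with DESeq2 (1.46, adjusted p = 0.0109).

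*dusp16*, a further JNK and p38 phosphatase, overlapped between the lines (log2 fold change 0.30 ± 0.331, SE, edgeR adjusted p = 0.448) and passed without SEF replicate 3 (0.77, edgeR adjusted p = 0.0137).

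*dusp4* and *dusp2*, both nuclear phosphatases inducible in mammals, were lower in PEF. *dusp4* (ENSAMXG00000003615) was at 0.54, 0.57 and 0.47 TPM in PEF libraries and at 9.82, 10.47 and 11.66 TPM in SEF libraries. The libraries of each line lay close together, with a log2 fold change of −4.24 ± 0.194 (SE, edgeR adjusted p = 5.31e-06). *dusp2* was at 2.25, 0.31 and 0.40 TPM in PEF libraries and at 3.86, 2.97 and 0.76 TPM in SEF libraries.

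For *dusp2* the lines overlapped, since PEF replicate 1 was above SEF replicate 3. The log2 fold change was −1.91 ± 0.683 (SE, edgeR adjusted p = 0.0431) and −2.79 without PEF replicate 1 (edgeR adjusted p = 0.00742). Without PEF replicate 2, PEF replicate 3, SEF replicate 1 or SEF replicate 2 the edgeR adjusted p was 0.126, 0.111, 0.128 and 0.108, and the call was lost, as it was with limma on log2(TPM + 1) (−0.84, adjusted p = 0.166).

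**Figure D4:**
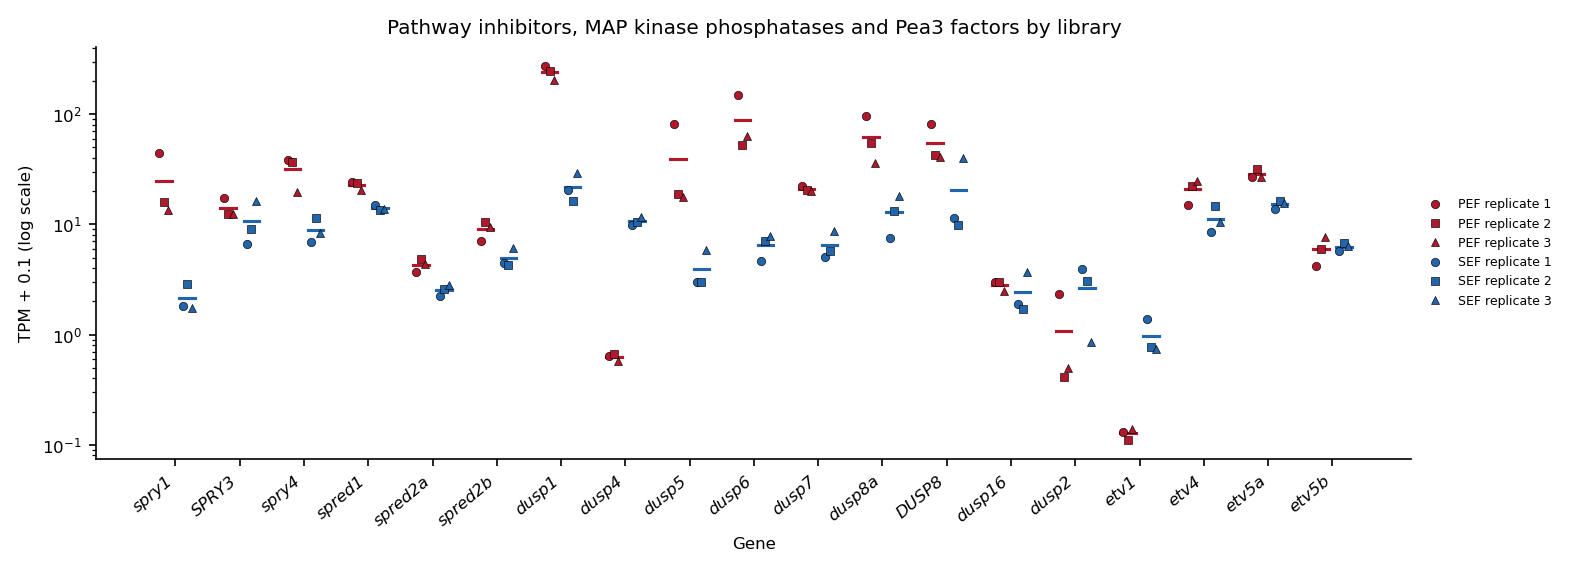
TPM + 0.1 on a log axis for Sprouty and Spred inhibitors, the 9 MAP kinase phosphatases and the Pea3 factors, in PEF libraries (red, left of each pair) and SEF libraries (blue, right), with a symbol for each replicate and a bar at the mean of 3 libraries. *dusp1*, *dusp5*, *dusp6*, *dusp7*, *dusp8a*, *spry1* and *spry4* are higher in every PEF library, *dusp4* and *etv1* lower in every one, and PEF replicate 1 is the highest PEF library for 7 of the 9 phosphatases.

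Other dual specificity phosphatases, lack the MAP kinase binding part. Of 16 genes, 12 were tested, 2 were higher in PEF, 3 were lower and 7 did not pass, with a median log2 fold change of −0.13. The share called was 41.7%, against 63.5% of all genes tested. The higher genes were *dusp11*, an RNA phosphatase in mammals (log2 fold change 0.66 ± 0.167, SE, edgeR adjusted p = 0.0112), and 1 of the 2 genes named *DUSP26* (ENSAMXG00000035424), at 1.16 ± 0.415 (SE, edgeR adjusted p = 0.0425). The normalized counts of *dusp11* did not overlap between the lines, but its TPM values did. SEF replicate 2 stood at 16.55 TPM within the PEF range of 15.24 to 19.24 TPM. The *dusp11* call was lost with limma on log2(TPM + 1) (0.35, adjusted p = 0.11). The *DUSP26* call was lost without PEF replicate 1, 2 or 3 (edgeR adjusted p = 0.096, 0.0753 and 0.0684), SEF replicate 2 (0.13) or SEF replicate 3 (0.107).

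The lower genes of this class were *DUSP23*, *dusp22a* and 1 of the 2 genes named *DUSP3*. *DUSP3* (ENSAMXG00000034590) had 3, 4 and 0 reads in PEF libraries and 42, 51 and 37 in SEF libraries, at a log2 fold change of −4.14 ± 0.581 (SE, edgeR adjusted p = 0.000676). The other *DUSP3* gene (ENSAMXG00000009289) had 58, 49 and 35 reads in PEF libraries and 48, 76 and 55 in SEF libraries, which overlapped. *DUSP23* (log2 fold change −0.96) and *dusp22a* (−0.61) showed smaller differences, without overlap. The further genes that did not pass were *dusp12*, *dusp19b*, *dusp22b*, *dusp23b*, *dusp27* and *dusp28*. Of these, *dusp28* was lower in PEF without overlap but missed the threshold (log2 fold change −0.93 ± 0.361, SE, edgeR adjusted p = 0.0561). It passed with limma on log2(TPM + 1) (−0.69, adjusted p = 0.00419). Not tested were *dusp13a*, *dusp14*, *dusp19a* and the *DUSP26* gene ENSAMXG00000005462, with at most 7 reads in any library.

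Pea3 family factors are ETS transcription factors whose genes are switched on by FGF signals in vertebrate embryos. *etv5a* (ENSAMXG00000010893) was at 26.99, 31.55 and 26.97 TPM in PEF libraries and at 13.67, 16.24 and 15.50 TPM in SEF libraries. *etv4* (ENSAMXG00000009346) was at 15.02, 22.30 and 24.84 TPM in PEF libraries and at 8.46, 14.46 and 10.52 TPM in SEF libraries. Both were higher in each PEF library, with log2 fold changes of 1.01 ± 0.138 for *etv5a* (SE, edgeR adjusted p = 0.000587) and 1.003 ± 0.258 for *etv4* (SE, edgeR adjusted p = 0.0116).

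*etv5b* was at 4.06, 5.86 and 7.66 TPM in PEF libraries and at 5.65, 6.71 and 6.25 TPM in SEF libraries. All SEF libraries lay within the PEF range, and the direction was not settled: the log2 fold change was 0.08 ± 0.215 (SE, edgeR adjusted p = 0.774) and −0.10 on the log2(TPM + 1) scale. *etv1* (ENSAMXG00000039261) had 2, 2 and 1 reads in PEF libraries and 87, 82 and 64 in SEF libraries. It was the only member of the family that was lower in PEF, by 46.3-fold (95% counting interval 19.6 to 144, edgeR adjusted p = 2.95e-05).

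Outside the Pea3 family, *ETV6*, an ETS repressor, was at 14.80, 15.36 and 15.53 TPM in PEF libraries and at 22.06, 22.09 and 22.12 TPM in SEF libraries. The difference was small and far beyond the spread within the lines (log2 fold change −0.46 ± 0.0918, SE, edgeR adjusted p = 0.00382). One of the 2 genes named *etv7* (ENSAMXG00000030197) had 8, 11 and 8 reads in PEF libraries and 0, 0 and 1 in SEF libraries, too few to pass the read filter. The other *etv7* gene (ENSAMXG00000038749) had 5, 2 and 2 reads in PEF libraries and none in SEF, and *etv2*, a factor of blood vessel precursors, at most 4 reads in any library. Without the read filter both *etv7* genes passed as higher in PEF (edgeR adjusted p = 0.0026 and 0.0321).

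The rule on names also took in 5 genes outside the pathway: *fgfr1op* and *fgfr1op2*, named for fusions with FGFR1 in human cancers, and *spryd3*, *spryd7a* and *spryd7b*, which carry an unrelated SPRY domain. *fgfr1op* was higher in PEF (log2 fold change 0.70), *fgfr1op2* (−0.58) and *spryd7b* (−0.65) were lower, and *spryd3* and *spryd7a* did not pass. *spryd7a*, at 0.27, passed without PEF replicate 1 or SEF replicate 3 (edgeR adjusted p = 0.0183 and 0.0485). Without these 5, 39 of 54 tested genes (72.2%) passed, against 63.5% of all genes tested. Of these, 19 (35.2%) were higher in PEF, beside 30.4% of all genes, and 20 (37.0%) lower, beside 33.1%.

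Pathway genes not reached by the rule were taken from 3 lists of coreceptors and heparan sulfate enzymes, of adaptors and the RAS-ERK cascade, and of genes tied to the response to ERK. The last list, called ERK-responsive here, is not limited to genes whose transcripts ERK raises, since it holds *elk1*, *elk3*, *elk4* and *pea15*. The lists matched 104 genes, 94 of them tested. Of these, 36 (38.3%) were higher in PEF and 26 (27.7%) lower, beside 30.4% and 33.1% of all genes, with a median log2 fold change of 0.13. Of the 34 tested genes of the first list, 10 were higher and 12 lower, and of the 40 of the second, 15 were higher and 13 lower. In the ERK-responsive list 11 of 20 (55.0%) were higher in PEF and 1 (5.0%) was lower, with a median of 0.94; no list was tested as a group.

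Heparan sulfate proteoglycans hold FGFs near their receptors. The largest rise in the lists was that of *sulf2b* (ENSAMXG00000030169), an enzyme that strips sulfate groups from heparan sulfate outside the cell, which was at 105.01, 78.74 and 71.08 TPM in PEF libraries and at 0.15, 0.18 and 0.08 TPM in SEF libraries. Its log2 fold change was 9.26 ± 0.309 (SE, edgeR adjusted p = 1.92e-06). The related gene *sulf1*, named after its values were seen, was read in both lines. It was at 34.38, 36.38 and 30.77 TPM in PEF libraries and at 49.43, 39.14 and 36.72 TPM in SEF libraries, and did not pass (edgeR adjusted p = 0.365). Glypicans are heparan sulfate proteoglycans anchored in the membrane. Those with the highest mean levels in both lines, *gpc4* and *gpc1b*, did not pass (edgeR adjusted p = 0.0877 and 0.765). *gpc1a* was higher in PEF (log2 fold change 3.77), and *gpc3* (−4.14) and *gpc6a* (−1.74), with at most 45 reads in any library, were lower. The *gpc6a* call was lost without PEF replicate 2 or 3 or any SEF library. The 2 glypicans with the largest changes went in opposite directions.

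*gpc2* (ENSAMXG00000039687) was at 10.94, 12.39 and 13.56 TPM in PEF libraries and at 0.41, 0.28 and 0.28 TPM in SEF libraries (log2 fold change 5.04 ± 0.231, SE, edgeR adjusted p = 5.27e-06). *gpc6b* (ENSAMXG00000001884) was at 0.24, 0.31 and 0.34 TPM in PEF libraries and at 66.93, 73.02 and 32.21 TPM in SEF libraries (log2 fold change −7.50 ± 0.409, SE, edgeR adjusted p = 1.01e-05). Each was thus near the floor in one line and plainly read in the other.

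*anos1a* (ENSAMXG00000036974) encodes anosmin, a matrix protein that binds FGFR1 in mammals. It had 0, 0 and 3 reads in PEF libraries and 1398, 1497 and 633 in SEF libraries, which is 1170-fold lower in PEF with a 95% counting interval of 400 to 5670. The fitted log2 fold change was −10.04 with all libraries (edgeR adjusted p = 3.13e-05) and −13.20 without PEF replicate 3, which held the 3 reads. The Klotho coreceptor genes *kl* and *klb*, used by hormone-like FGFs, had no read in any library.

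Within the RAS-ERK cascade the largest fall was that of *ksr2* (ENSAMXG00000001178), a scaffold that holds RAF, MEK and ERK together. It had no read in PEF and 88, 107 and 114 reads in SEF libraries (edgeR adjusted p = 6.3e-05). With 3 reads per library allowed for the count of 0, this was at least 34.1-fold lower. The related scaffolds *ksr1a* and *ksr1b*, named here after their values were seen, were also lower, at log2 fold changes of −3.73 and −2.07 (edgeR adjusted p = 0.000114 and 0.000569). The MEK genes *map2k1* and *map2k2b*, also chosen after their values were seen, went in opposite directions. *map2k1* was at 218.54, 277.80 and 271.83 TPM in PEF libraries and at 163.17, 137.24 and 122.03 TPM in SEF libraries (log2 fold change 1.02, edgeR adjusted p = 0.00125). *map2k2b* was lower in PEF (−1.10, edgeR adjusted p = 4.57e-05).

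Among the ERK-responsive genes, the AP-1 gene *fosb* (ENSAMXG00000037476) was at 74.78, 116.59 and 55.84 TPM in PEF libraries and at 1.57, 2.83 and 3.56 TPM in SEF libraries. It was higher in every PEF library, at 4.98 ± 0.406 on the log2 scale (SE, edgeR adjusted p = 5.36e-05). The other 10 genes of the list that were higher in PEF, named after their values were seen, were the AP-1 genes *fosab* and *fosl1a*, the ETS genes *ETS2* and *ets1*, *egr3*, *ier2a*, *ier5*, *mycb* and the cyclin D genes *ccnd1* and *ccnd2a*. The ETS gene *elk3* was lower. *egr1*, among the fastest genes to respond to ERK, was at 276.53, 64.34 and 56.72 TPM in PEF libraries and at 46.50, 65.18 and 10.69 TPM in SEF libraries, which overlapped (edgeR adjusted p = 0.0865).

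Without PEF replicate 1, 10 genes of this list were higher and 1 lower. Leaving out that library took *fosl1a* to a log2 fold change of 3.55 from 4.84 with all libraries, *fosab* to 1.23 from 1.89 and *mycb* to 2.94 from 3.60, all still past the threshold (edgeR adjusted p = 9.32e-05, 0.023 and 8.5e-05). *ETS2* was at 4.25 with all libraries and 4.86 without SEF replicate 3 (edgeR adjusted p = 0.000604). Its level was 209.73 TPM in PEF replicate 1, against 90.25 and 74.25 TPM in the other PEF libraries. The SEF libraries were at 3.98, 5.16 and 11.23 TPM. The *ier5* call was lost without PEF replicate 1 (edgeR adjusted p = 0.079), SEF replicate 1 (0.107) or SEF replicate 2 (0.105), and the *ets1* call without PEF replicate 2 (0.0624), SEF replicate 1 (0.055) or SEF replicate 2 (0.0664).

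**Figure D5:**
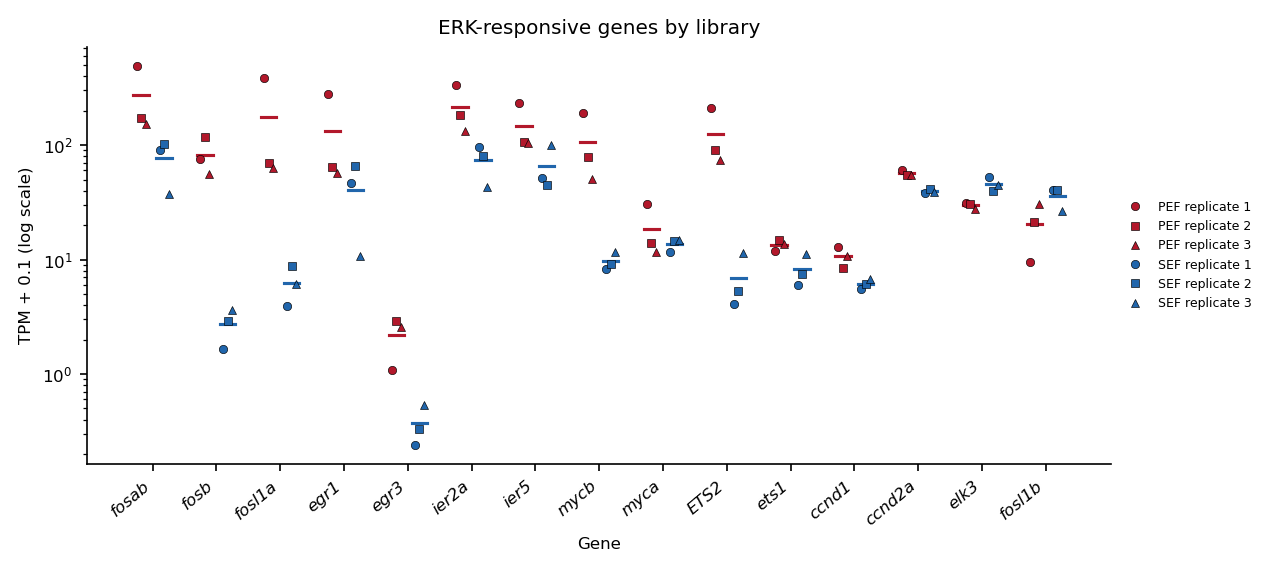
TPM + 0.1 on a log axis for ERK-responsive genes, in PEF libraries (red, left of each pair) and SEF libraries (blue, right), with a symbol for each replicate and a bar at the mean of 3 libraries. *fosb*, *fosl1a*, *egr3*, *mycb* and *ETS2* are higher in every PEF library, and PEF replicate 1 is the highest PEF library for *fosab*, *fosl1a*, *egr1*, *mycb* and *ETS2*.

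The SEF libraries were not uniform for the phosphatases, since SEF replicate 3 had the highest summed level but the lowest level of *dusp2*. PEF replicate 1 stood apart for many of these fast-responding genes and of the phosphatases, but not in 1 direction for all. It was the lowest PEF library for *egr3* and *fosl1b*, at 0.374 and 0.361 of the mean TPM of the other PEF libraries. In normalized counts it was the highest PEF library for 7 of the 9 MAP kinase phosphatases and 15 of the 20 ERK-responsive genes, against 37.9% of all genes tested. The same held for 7 of the 12 other dual specificity phosphatases and 18 of the 34 coreceptor and heparan sulfate genes. It held for 13 of the 40 adaptor and cascade genes, 2 of the 6 Sprouty and Spred genes, 1 of the 6 receptor genes and 1 of the 4 Pea3 genes. It was more than 2-fold above both other PEF libraries for 3 of the 9 phosphatases, 1 of the 6 Sprouty and Spred genes and 7 of the 20 ERK-responsive genes (35.0%), against 4.11% of all genes tested. In the same counts this held for 0 of 6 receptor and 0 of 4 Pea3 genes, although in TPM *fgfrl1b* was 2.53-fold above the mean of the other PEF libraries. Without PEF replicate 1, *dusp5*, *dusp6*, *spry1*, *fosl1a*, *fosab* and *mycb* remained higher in PEF, at the values given above.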

How the data were processed

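RNA of 3 PEF and 3 SEF libraries was sequenced from TruSeq Stranded mRNA preparations on an Illumina instrument. Raw read counts for each gene were deposited by the authors. The 4 rows of reads on no gene (38.753% to 41.05% of a library) were left out. TPM values, which sum to a fixed total in every library and carry 2 decimals, were deposited by the authors as well. The submitters' processing notes name STAR 2.7.3a and RSEM. The genome, annotation and strand setting of the fibroblast libraries are not given in the sources used here, so overlapping or antisense genes are uncertain. Reads with several matches stood in a row of their own, so near-identical copies may be undercounted. No positions or sequences were analysed here: the comparison of proteins between gene copies and the promoter motif search that had been planned were not run.

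Samples were grouped by the cell line in their labels. Counts were tested with edgeR 4.0.16 in R 4.3.3 (TMM, filterByExpr, quasi-likelihood test, no covariate, Benjamini-Hochberg adjustment over all genes tested, threshold 0.05). Standard errors come from the F statistic, and fold changes are PEF over SEF. A line with a few reads in all is given as a ratio of reads scaled for library size with an exact 95% counting interval, and a line at 0 as a bound at 3 reads per library. The script was tested on simulated data in which few genes differed. Most genes differ here, so that test does not give the share of false calls in these data. Alternatives were DESeq2 1.42.0, upper-quartile normalization, other read filters, limma 3.58.1 on log2(TPM + 1) and log2(TPM + 0.1), a replicate block, and leaving out each library.

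Genes with values in every library were the receptors and usual FGF targets, other members past the threshold with a log2 fold change of at least 1 in size, no overlap, and 100 reads or more on average in the line with more, and ligands with at least 100 reads in a library. Other members were named where a count was 5 or fewer, and further members so that each one is accounted for. For the pathway lists the rule was the 3 largest rises and falls under the same limits on reads and overlap. The members and lists were chosen with earlier results of these data known. Of the listed symbols, 38 of 39, 39 of 41 and 23 of 27 were found.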

Additional observations from a re-analysis of the deposited data

How the results depend on the processing

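The number of FGF signaling genes called ranged from 31 (at least 10 reads in every library, 45 genes tested) to 49 (no read filter, 85 tested), compared with 42, and from 36 to 45 when a library was left out. The corresponding ranges were 7700 to 11808 of all genes, and 9289 to 10968 when a library was left out, against 10579, and 51 to 65 of the other pathway genes, and 52 to 60 when a library was left out, against 62. The number of all genes tested also changed, from 13388 (at least 10 reads in every library) to 23839 (limma without a filter), against 16670. It was 16966 to 17201 when a library was left out. These counts of calls can therefore not be compared as shares. Of the 42 genes called, 34 were called in every alternative that tested them, and 0 changed sign. Of the genes with values in every library, those that changed sign were not called. *etv5b* was at −0.10 with limma on log2(TPM + 1) with or without a filter, at −0.12 on log2(TPM + 0.1), and between −0.11 and 0.30 when a library was left out. *fgfrl1b* was between −0.54 and 0.40 when a library was left out, reversed without PEF replicate 3 (0.08) and SEF replicate 3 (0.40). *fgf2*, not called either, was between −0.41 and 0.37 when a library was left out and also changed sign with the replicate block. For these genes, the cause was not tested. *fgf1a* passed with DESeq2 (−1.10) and with at least 10 reads in every library (−1.13). Among called pathway genes, 1 of the 2 genes named *grb2a* changed sign on TPM.

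Replicate numbers did not pair the libraries: same-numbered PEF and SEF libraries correlated in their deviations from the line means at −0.0414, 0.0735 and −0.135 for replicates 1, 2 and 3, and not every library correlated best with its own number. With a replicate block 9735 of all genes, 42 FGF signaling genes (21 higher, 21 lower) and 58 other pathway genes were called, and *fgfr2* was no longer called (edgeR adjusted p = 0.0598).

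The median log2 fold change over all genes moved between −0.08 and 0.01 across the normalizations and filters, and to −0.17 without a read filter. Of the 30 untested genes, 4 had no read, and 7 of the other 26 passed when no read filter was used. The corresponding share over all untested genes is not given here. With 1 line per population, differences between lines, clones and populations cannot be told apart.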

Other observations

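The following gene copies were chosen after their values were seen and are given as values only. The docking protein genes *frs2a* and *frs2b*, which link FGF receptors to the adaptor Grb2, went opposite ways: *frs2a* was at 7.75, 9.10 and 9.75 TPM in PEF libraries and at 17.01, 12.56 and 32.98 TPM in SEF libraries, and *frs2b* was at 16.87, 16.36 and 16.55 TPM in PEF libraries and at 10.87, 9.94 and 8.57 TPM in SEF libraries. The log2 fold changes were −1.14 ± 0.364 for *frs2a* (SE, edgeR adjusted p = 0.0285) and 0.86 ± 0.115 for *frs2b* (SE, edgeR adjusted p = 0.000525). The *frs2a* call was lost without PEF replicate 1, 2 or 3 (edgeR adjusted p = 0.0696, 0.0687 and 0.0529).

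Of the *ext1* copies, which encode an enzyme that builds heparan sulfate chains, *ext1a* was higher in PEF (log2 fold change 1.12 ± 0.298, SE, edgeR adjusted p = 0.0138), while *ext1b* (−1.63 ± 0.119, edgeR adjusted p = 3.35e-05) and *ext1c* (−3.22 ± 0.472, edgeR adjusted p = 0.000833) were lower. The *ext1a* call was lost without SEF replicate 1 or 2 (edgeR adjusted p = 0.0507 and 0.053). *ext1b* was the most abundant copy in both lines, at 36.35, 32.26 and 27.91 TPM in PEF libraries and 114.79, 97.93 and 99.28 TPM in SEF libraries. Both *hs6st1* genes that were read, which add the sulfate groups that *sulf2b* removes, were higher in PEF, at 1.14 ± 0.265 for *hs6st1a* and 1.76 ± 0.214 for *hs6st1b* (SE, edgeR adjusted p = 0.00745 and 0.000336). The related gene *hs6st2* was lower in PEF, at −1.845 ± 0.21 (SE, edgeR adjusted p = 0.000248). It was at 2.43, 1.39 and 1.46 TPM in PEF libraries and at 6.39, 5.59 and 7.38 TPM in SEF libraries.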
